A study of Mus with 4 samples.

Results

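Pseudouridine (Ψ) in U1 and U5 RNA, which act at splice sites in the spliceosome, was examined in the cochlea of Otof mutant mice. The table analysed listed Ψ sites by gene, and every site assigned to Rnu1a1 (U1 RNA) or Rnu5g (U5 RNA) was taken. This gave 4 of 755 sites, in 2 of 465 genes. Rnu1a1 had 1 site, at positions 5 to 6 of the transcript, and Rnu5g had 3, at positions 40 to 43, at position 46 and at positions 52 to 54. All 4 had values in both replicates, as did 500 of the 755 sites.

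The mice carried Otof c.1315 C > T, a premature stop (p.R439X) in otoferlin, which inner hair cells need to release transmitter. The study's methods describe it as the counterpart of a human mutation. Both replicates were cochlear tissue of this genotype that had not received RESTART, an RNA editor that directs Ψ to the stop codon. By the methods, mutant mice were injected at 4 weeks of age without regard to sex, and cochleae for Ψ sequencing were collected 4 weeks later. The age of the untreated mice is not stated separately, and the number of cochleae per replicate was not given in the sources used here. The 2 samples labelled RESTARTv3 were not analysed here, so no effect of that treatment on U1 or U5 is reported. The molecule is labelled as polyA RNA, whereas the study's methods describe total RNA depleted of ribosomal RNA, and U1 and U5 have no poly(A) tail. The table holds Ψ sites and no expression levels, so the tissue could not be checked against marker genes.

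U1 and U5 are small nuclear RNAs (snRNAs) that work as RNA and protein particles. The first bases of U1 pair with the 5′ splice site at the start of an intron, an early step of spliceosome assembly. U5 holds the exons through a conserved loop while they are joined. Vertebrate U1 and U5 are known to be pseudouridylated in these regions, mostly by H/ACA complexes, whose guide RNAs select the uridine and whose enzyme dyskerin isomerizes it.

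PRAISE, the assay used, treats RNA with sulfite and bisulfite so that reverse transcriptase skips Ψ and leaves a deletion in the read. Each replicate had a chemistry library and an untreated control library. The deletion ratio is the share of reads at a site that lack the base, and the modification level is the chemistry ratio minus the control ratio, in percentage points. Where uridines are adjacent the assay cannot tell which of them is Ψ, so a run of positions has a single level. No RNA sequence was used here, and the uridines inside each run were therefore not examined.

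In U1, the run at positions 5 to 6 lies at the 5′ end that pairs with the splice site. On GRCm39 its deposited coordinate was 87313698 on chromosome 11, plus strand, in a gene typed as snRNA. The spreadsheet behind the table had stored this run as a date, read here as month 5 and day 6. In replicate 1, 94 of 381 chemistry reads had a deletion (24.7%, Wilson 95% interval 20.6% to 29.2%), against 22 of 10763 control reads (0.204%). In replicate 2 the counts were 125 of 419 chemistry reads (29.8%, interval 25.7% to 34.4%) and 18 of 6313 control reads (0.285%). Control deletion was thus rare in both replicates. The level was 27.0% ± 3.59 (SD, n = 2), from 24.5% and 29.5%.

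U1 is encoded by several similar genes. How the alignment shared reads among them was not given in the sources used here, so values of a single copy are uncertain. Genes similar to Rnu5g were not looked for, so its values may carry the same limit. Of the other U1 genes on the snRNA list, Rnu1b1 had a listed site. It lay near the far end of the transcript, at position 159, and had a value in replicate 1 alone. There, 8 of 39 chemistry reads had a deletion (20.5%, Wilson 95% interval 10.8% to 35.5%), for a level of 18.5%. Rnu1b2 and Rnu1b6 had no listed site, which tells nothing about Ψ in them, since unlisted positions carry no values.

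In U5, the run at positions 40 to 43 belongs to the loop that contacts the exons, by the textbook structure of this RNA. Its deposited GRCm39 coordinate was 65109081 on chromosome 9, minus strand. Deletions were found in 239 of 346 chemistry reads of replicate 1 (69.1%, Wilson 95% interval 64.0% to 73.7%) and in 230 of 354 of replicate 2 (65.0%, interval 59.9% to 69.8%). The control libraries had 47 of 15404 reads (0.305%) and 9 of 5285 reads (0.170%). Most chemistry reads over the loop thus carried a deletion in both replicates. The level was 66.8% ± 2.81 (SD, n = 2), from 68.8% and 64.8%.

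Position 46 of U5, in or beside the same loop and at coordinate 65109078, was far lower. In replicate 1, 35 of 356 chemistry reads had a deletion (9.83%, Wilson 95% interval 7.15% to 13.4%), and in replicate 2, 37 of 369 (10.03%, interval 7.36% to 13.5%). Control deletions were 7 of 15504 reads (0.0451%) and 2 of 5319 reads (0.0376%). Its level of 9.89% ± 0.144 (SD, n = 2) differed least between replicates, from 9.79% to 9.99%.

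The run at positions 52 to 54 (coordinate 65109070) lies on the 3′ side of the loop and had the highest level of the 4 sites. In replicate 1, 323 of 430 chemistry reads had a deletion (75.1%, Wilson 95% interval 70.8% to 79.0%), and in replicate 2, 342 of 478 (71.5%, interval 67.3% to 75.4%). It also had the highest control ratio of the 4, with 101 of 16513 reads (0.612%) and 26 of 5432 reads (0.479%). Subtracting the control thus removed less than 1 point at every site. The level was 72.8% ± 2.43 (SD, n = 2), from 74.5% and 71.1%. Between the sites of Rnu5g, coordinates and positions moved by the same number of steps when each run was placed at its last position.

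**Figure D1:**
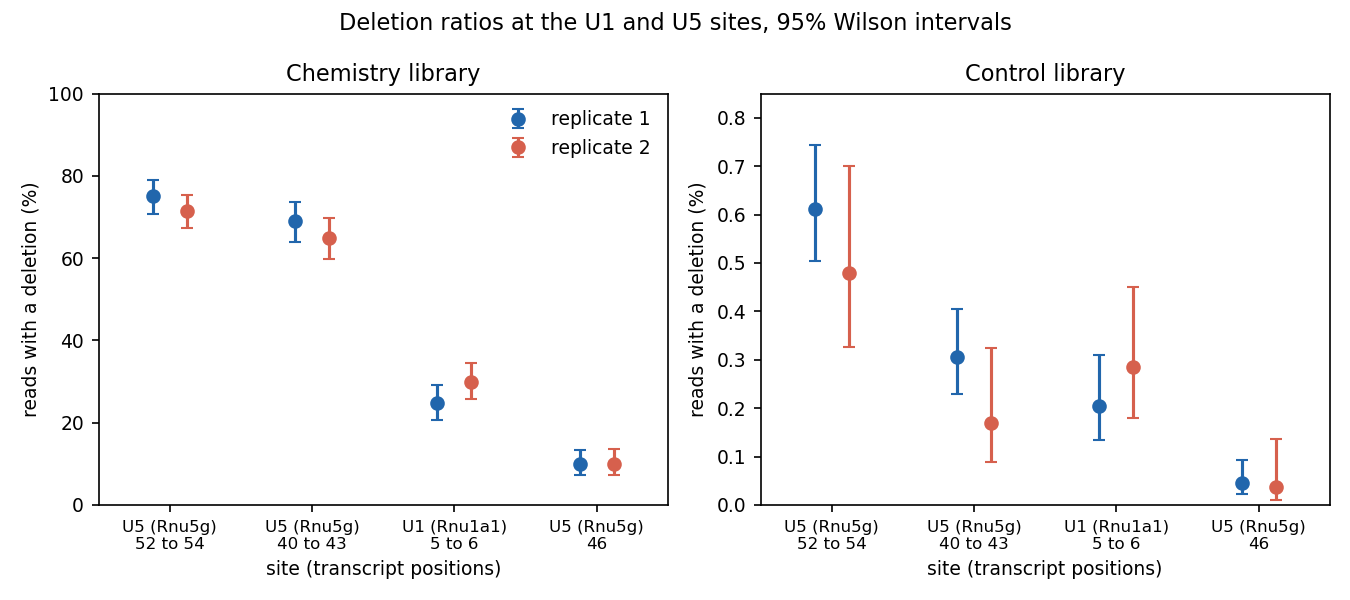
Share of reads with a deletion at the 4 sites in the chemistry library (left, 0% to 100%) and the control library (right, on a much smaller scale), in percent. Points are replicates 1 and 2 and bars are Wilson 95% intervals for counting error. The U5 runs at 52 to 54 and 40 to 43 sit between 65.0% and 75.1% with the chemistry, U1 at 24.7% and 29.8%, and U5 position 46 at 9.83% and 10.03%, while control ratios reach at most 0.612%.

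The order of the levels was the same in both replicates, with U5 positions 52 to 54 highest, then U5 positions 40 to 43, U1 positions 5 to 6 and U5 position 46. Both replicates of every site lay above both replicates of the next one down. Whether Ψ gives deletions equally often at each site was not tested, so the order is one of deletion-based levels. With 2 values a site, no permutation test could pass, and differences are given with intervals that cover counting error only. The U5 loop run exceeded U1 by 39.8 points ± 6.40 (SD, n = 2). For the chemistry ratios this difference was 44.4 points in replicate 1 (Newcombe 95% interval 37.6 to 50.6) and 35.1 in replicate 2 (28.3 to 41.5). U1 in turn exceeded U5 position 46 by 17.1 points ± 3.45, and by 14.8 points (9.46 to 20.1) and 19.8 points (14.4 to 25.1) in chemistry ratio.

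The smallest step in this order was the one between the upper U5 runs. Positions 52 to 54 exceeded positions 40 to 43 by 5.73 points in level in replicate 1 and by 6.27 in replicate 2, a mean of 6.0 ± 0.377 (SD, n = 2). For the chemistry ratio the interval ran from -0.281 to 12.4 points in replicate 1 and from 0.207 to 13.0 in replicate 2. These runs were therefore not separated beyond counting error in replicate 1, and only just in replicate 2. The sites lie within a few bases of each other, so a read can cover both, and an interval for independent reads is approximate.

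Within the U5 loop region the contrast was large. Positions 40 to 43 had 6.75 times the mean level of position 46, a difference of 56.9 points ± 2.95 (SD, n = 2), although nearly the same numbers of reads covered them. The interval of the chemistry difference was 53.1 to 64.6 points in replicate 1 and 48.8 to 60.4 in replicate 2. A run sums deletions over 4 positions and position 46 is a single one, and the shares of the bases within the run cannot be told apart.

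All 4 sites passed a two-sided Fisher exact test of chemistry against control reads in both replicates, with at least 20 reads in each library, a control ratio under 5% and a level over 5 points. Of the 500 sites with values in both replicates, 85.6% passed as well. The authors had already kept sites by nearly these rules, so the count describes the list and is no evidence about U1 or U5. At a level over 10 points, U5 position 46 no longer passed, and 3 of the 4 sites remained.

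Set against the 434 sites that reached 20 reads in each of the 4 libraries, whose mean levels had a median of 26.8%, the U5 runs were in the upper part, U1 near the middle and U5 position 46 in the lower part. By mean level, U5 positions 52 to 54 ranked 79 of 434 and positions 40 to 43 ranked 94. U1 positions 5 to 6 ranked 215 and U5 position 46 ranked 354. Sites of the same gene count separately in these ranks, and many above the U5 runs lay in Gm26917 and Lars2. Among sites of equal length, the loop run ranked 3 of 14 runs of 4 positions, which had a median of 50.9%. U5 positions 52 to 54 ranked 16 of 63 runs of 3, U1 ranked 93 of 163 runs of 2, and U5 position 46 ranked 146 of 190 single positions.

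Sites of other snRNA genes place these values in part. A list of 13 snRNA genes, chosen with earlier results of these data known, had listed sites in 6 genes. It left out snRNA genes under other names, such as Gm24407, which had 64.8% at positions 70 to 73. Of the 16 sites of the list, 14 were called in both replicates. Of these, 4 were in U1 and U5 and 10 in U2 (Rnu2-10), U6 (Rnu6) and U12 (Rnu12). These 10 ranged from 12.3% to 85.8% in mean level, with a median of 35.1%. U2 pairs with the branch site of the intron, U6 replaces U1 at the 5′ splice site and forms part of the catalytic centre, and U12 does the work of U2 in the minor spliceosome. The upper U5 runs stood below the highest U12 sites, position 18 (85.8% ± 3.52, SD, n = 2) and position 27 (74.9% ± 2.01). U5 positions 52 to 54 (72.8%) were close to position 27, and U5 positions 40 to 43 (66.8%) were further below. The replicates of position 27 (76.3% and 73.5%) overlapped those of U5 positions 52 to 54 (74.5% and 71.1%), and no test of this difference was run.

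U1 stood between U2 positions 91 to 92 (33.8% ± 2.55, SD, n = 2) and U2 position 89 (23.8% ± 1.80). Its own replicates were 24.5% and 29.5%, so the upper value of U1 stayed below both values of positions 91 to 92 (32.0% and 35.6%), and its lower value lay between those of position 89 (22.5% and 25.0%). U6 positions 9 to 10, also near the start of an RNA, had 23.2% ± 5.83. U5 position 46 was the lowest of the 14 called sites, next to U6 position 23 (12.3% ± 2.38).

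**Figure D2:**
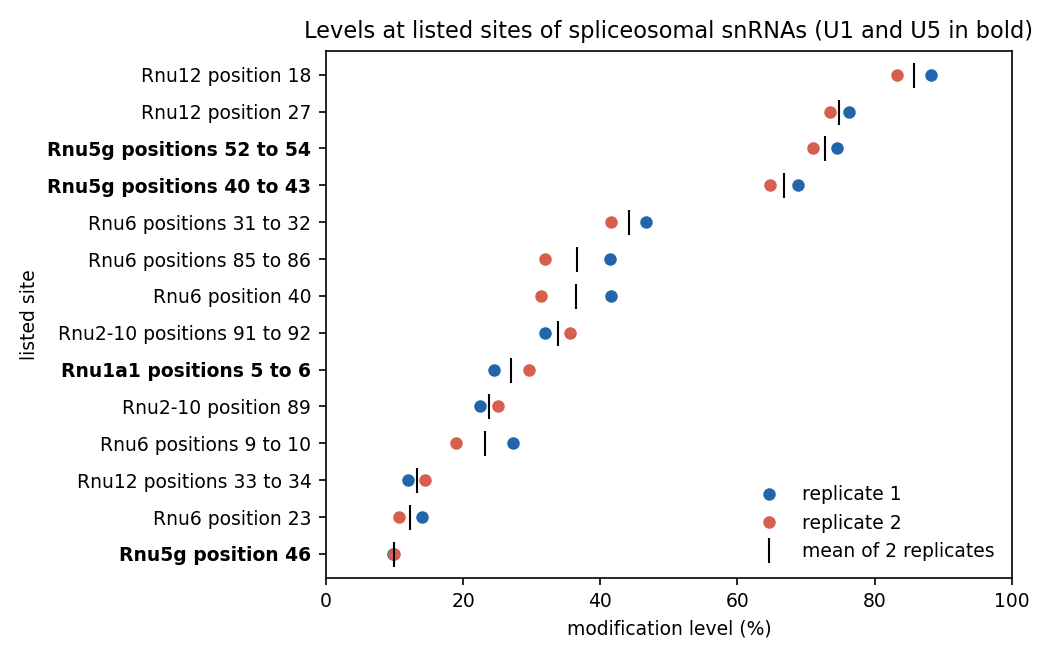
Modification level in percent (x axis) at each of the 14 sites of the 13-gene snRNA list with values in both replicates (y axis, ordered by mean level, U1 and U5 in bold). Points are replicates 1 and 2 and the bar is their mean. The upper U5 runs lie below both U12 sites at the top, at 72.8% and 66.8%, U1 lies at 27.0% and U5 position 46 is last at 9.89%.

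Replicate error was examined next, since it sets the change that a comparison of treatments could resolve in these RNAs. The study describes its replicates in general as biological, but the labels do not say that these came from separate animals. The p-values below treat reads as the unit, so they allow for counting error only and do not measure spread between samples. U1 was 5.08 points higher in replicate 2 (Newcombe 95% interval for the chemistry ratio -1.03 to 11.3). In U5 the level fell by 3.97 points from replicate 1 to 2 at positions 40 to 43 (interval -11.0 to 2.86) and by 3.44 points at positions 52 to 54 (interval -9.27 to 2.21), while position 46 differed by 0.203 points (interval -4.23 to 4.59). The 4 sites thus did not move in one direction.

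By a two-sided Fisher exact test of chemistry reads between replicates, adjusted over 441 sites by the Benjamini-Hochberg method, none of the 4 sites passed the threshold of 0.05. The adjusted p was 0.597 for U1 (Fisher exact, unadjusted p = 0.112). For U5 it was 0.762 at positions 40 to 43 (Fisher exact), 0.762 at positions 52 to 54 and 1 at position 46, and no unadjusted p of the 4 was under 0.05. A chi-square test also called none of them. Of the 441 sites, 2.27% passed the Fisher exact test. At these depths a shift of several points would not have been detectable, as the intervals above show. Among 61 sites with a mean of 300 to 500 chemistry reads, a band chosen after the values were seen that holds all 4 sites, levels of replicate 2 minus replicate 1 had an SD of 3.45 points, ranging from -7.09 to 9.51. Of the snRNA list, 4 sites did pass the test, the 2 of U2 and 2 of U6, with 1540 to 13646 chemistry reads in each replicate.

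**Figure D3:**
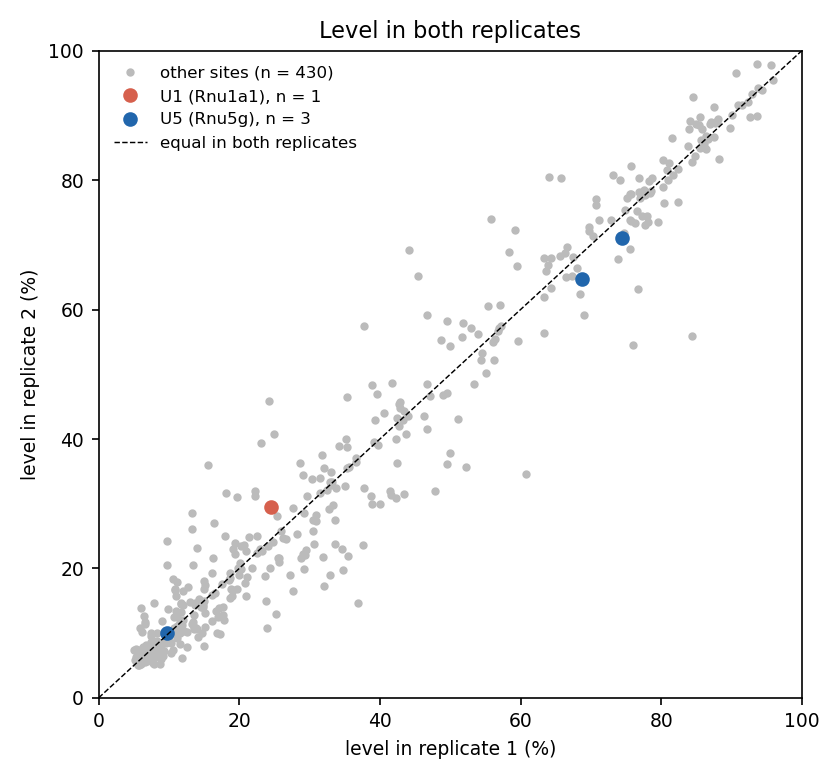
Level in replicate 1 (x axis, percent) against level in replicate 2 (y axis, percent) at the 434 sites that reached 20 reads in each of the 4 libraries. Grey points are other sites, coloured points U1 and U5, and the dashed line marks equal levels. U1 lies above the line (24.5% and 29.5%), the upper U5 runs slightly below it, and U5 position 46 on it (9.79% and 9.99%).

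The ratio of control to chemistry reads was higher at U1 and U5 than at most other sites. In replicate 1 the control library held 44.5 reads for each chemistry read at U5 positions 40 to 43, 43.6 at position 46, 38.4 at positions 52 to 54 and 28.2 at U1. The median over the 434 sites was 2.18. By this ratio the U5 sites ranked 1, 2 and 3 of 434 and U1 ranked 6. Gm24871 positions 71 to 72 (31.5) and Gm26378 positions 85 to 86 (30.2) stood above U1. In replicate 2 the ratios were 14.9, 14.4 and 11.4 for U5 and 15.1 for U1, against a median of 1.37. They ranked 9, 11, 19 and 8. Sites above all 4 there included position 58 (25.4) and positions 53 to 55 (25.1) of Gm25939. Positions 70 to 73 of Gm24407 (17.7) and of Gm24265 (16.6) were also above them. Control reads at the 4 sites numbered 5285 to 16513, against medians of 475.5 and 413 in the replicates. Chemistry reads numbered 346 to 478, against medians of 220.5 and 286.5, so both libraries were deeper here than at the median site.

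Control reads also differed between replicates. U5 had 2.91 to 3.04 times as many in replicate 1 as in replicate 2, and U1 1.70 times as many, whereas chemistry reads were 1.02 to 1.11 times as many in replicate 2. The source of these differences in reads was not tested. A level in bulk cochlea is an average over all cells that supplied reads. It is a share of reads, so neither the number of cells of a type nor the RNA per cell can be read from it. At the other 10 sites of the snRNA list with values in both replicates, ratios ran from 1.41 to 13.6 in replicate 1, all below U1 and U5. In replicate 2 they ran from 1.33 to 19.7, and on this list both U2 sites were above U1 and U5. The part of this ratio in the levels was not tested.

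**Figure D4:**
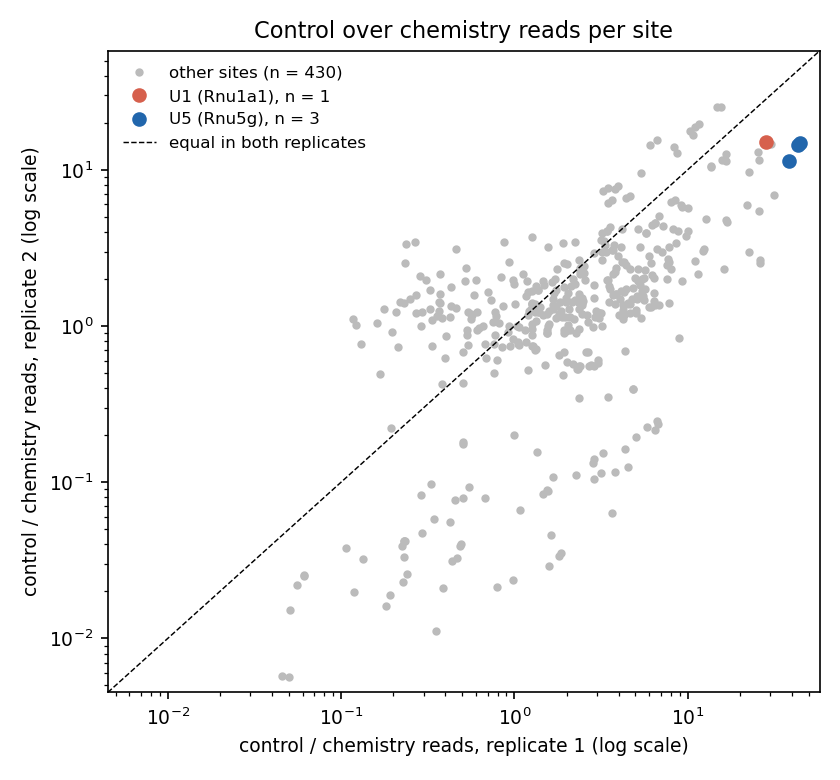
Control reads divided by chemistry reads at each of the 434 sites, in replicate 1 (x axis, log scale) and replicate 2 (y axis, log scale). Grey points are other sites, coloured points U1 and U5, and the dashed line marks equal ratios. U1 and U5 lie at the far right, at 28.2 to 44.5 in replicate 1 and 11.4 to 15.1 in replicate 2, below the dashed line.

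Messenger RNAs of the proteins around U1 and U5 were examined as well. Of 22 genes for proteins of the U1 and U5 particles, the Sm ring that both share and H/ACA complexes, 2 had a listed site, and both are named after their values were seen. Snrnp70, which encodes the 70K protein that binds the first stem of U1, had a site at position 1551 (chromosome 7, 45026011). Its level was 31.3% in replicate 1 (10 of 32 chemistry reads, Wilson 95% interval 18.0% to 48.6%) and 28.6% in replicate 2 (4 of 14, interval 11.7% to 54.6%), and with under 20 reads it was not called in replicate 2. Dkc1, which encodes dyskerin, had positions 483 to 484 in replicate 2 alone, over 7 chemistry reads (85.7%, Wilson 95% interval 48.7% to 97.4%), also too few for a call. None of the 7 genes for U5 proteins and none of the 8 Sm genes had a listed site, which does not show that their transcripts lack Ψ.

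Sites of other genes with the most similar levels were found by the distance between the pairs of replicate levels, which compares only 2 values per site. For the U5 loop run they were Gm23301 positions 34 to 36, Rn7sk position 250 and Lars2 position 3546, at distances of 1.45 to 2.28 points. For U5 positions 52 to 54 they were Gm25506 positions 47 to 48, Gm22306 position 40 and Snord14d positions 28 to 29 (0.867 to 2.93 points). For U5 position 46 they were Rpl10 positions 582 to 584, Ndrg4 position 1966 and Gm24494 position 48 (0.0800 to 0.986 points). For U1 they were Gm26493 position 98, Gm23734 position 46 and Gm24134 positions 45 to 46 (1.68 to 3.17 points). These sites lie in protein-coding, snoRNA and snRNA genes, except that Gm25506 and Gm24134 had no match in the reference table.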

How the data were processed

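Total RNA of mouse cochlea (2 untreated replicates, each with a chemistry and a control library) was profiled by PRAISE. By the methods and the submitters' processing notes, the authors used read 2, trimmed it with cutadapt 4.2, removed duplicates, cut molecular identifiers with UMI-tools 1.0.0, thinned the libraries to a common size and aligned them with PRAISE-tool to RefSeq transcripts of GRCm39. The deposited counts are deletion and total reads per site and library, without normalization. The deposited fractions are deletion ratios and their difference, and the deposited p-values were not used. Sites that missed the authors' rules in a replicate carry no value there.

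Levels recomputed from the counts matched the deposited ones. Sites were called by two-sided Fisher exact test (p under 0.005, control ratio under 5%, level over 5 points, 20 reads). Chemistry reads were compared between replicates by Fisher exact test with Benjamini-Hochberg adjustment over 441 sites. Wilson and Newcombe 95% intervals cover counting error only. Tests were checked on simulated data. Python 3.11.15, NumPy 2.4.6, SciPy 1.17.1, pandas 2.3.3 and Matplotlib 3.10.9 were used.

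Named were every site of Rnu1a1 and Rnu5g, the sites of 13 snRNA genes, and the 3 sites nearest in level to each member. Members and lists were chosen with earlier results of these data known. Gene types came from a RefSeq table of GRCm38.p6, in which Rnu1a1 (164 bases) lies within the span of Tex14 and Rnu5g (116 bases) within that of Gm40527. Its coordinates were not used. Alternatives changed the read minimum, level threshold, test, control subtraction and averaging, or left out a replicate. RESTARTv3 samples and RNA sequences were not analysed here.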

Additional observations from a re-analysis of the deposited data

How the results depend on the processing

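Of 56 values computed under the alternatives, 55 stayed within the spread of the replicates or within 1.5 times the main count. Differences between neighbours in the order kept their direction without control subtraction and from either replicate alone. Levels of the 4 sites moved by less than their SD under these alternatives and with the reads of both replicates summed. From either replicate alone this holds by construction, for the levels and for the size of the differences between neighbours. The exception was the place of U5 position 46 among all sites. It exceeded 18.4% of the 434 sites with 20 reads in all libraries, and 22.1% of the 349 with 50 reads. The 4 sites were called at minimums of 10 and 50 reads and by a chi-square test, but U5 position 46 was lost at a threshold of 10 points, just above its own level. The adjusted p for a difference between replicates ran from 0.536 to 1 over the alternatives (Fisher exact or chi-square), and sites past that test numbered 8 to 11 of all those tested. No paired analysis was possible because a single group, the untreated one, was analysed here, and a comparison with RESTARTv3 was not run for the same reason. Levels below about 5 points, and any position that the table does not list in U1 or U5, were beyond what these data show.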

Other observations

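Of the 755 listed sites, 3 reached position 6 or lower of their transcript, and these were noticed after the values were seen. Besides U1 they were positions 4 to 6 of Gm24407, typed as snRNA (18.6% ± 0.189, SD, n = 2, over 155 and 231 chemistry reads), and position 6 of Scarna10, a guide RNA of the Cajal body (19.9% ± 1.68, over 71 and 32 chemistry reads). U1 had the highest level of the 3 in both replicates, 24.5% and 29.5%, against 18.7% and 18.4% for Gm24407 and 21.1% and 18.8% for Scarna10. This order was not tested against counting error, and no intervals were computed for Gm24407 and Scarna10. All 3 were called in both replicates.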
